A study of Homo sapiens with 6 samples.

Results

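The aldehyde dehydrogenases described here are 10 genes, ALDH1A1, ALDH1A2, ALDH1A3, ALDH1B1, ALDH2, ALDH3A1, ALDH3A2, ALDH1L2, ALDH7A1 and ALDH18A1. They were chosen by symbol with the aldehyde dehydrogenase activity used to sort cancer stem cells in mind. The part of each gene in that activity was not measured. They are 10 of 22465 genes with a probe set that the platform annotation gives to exactly 1 symbol, and each of the 10 has 1 such probe set. RNA was measured on whole-transcript arrays in OV2008, an established human line labelled as ovarian cancer, which other work traces to a cervical carcinoma. One set of cells received a miR-328-3p mimic (miR328, 3 arrays) and the other a negative control miRNA (NC, 3 arrays), and RNA was taken 3 days after transfection. All cells were grown in RPMI medium with serum and were transfected, and no untransfected cells were analysed here, so effects of the mimic and of the control miRNA cannot be told apart. In the mimic samples' description field the control miRNA is named, and titles and source names were followed instead.

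Aldehyde dehydrogenases oxidise aldehydes to acids with NAD or NADP as the electron acceptor. They clear acetaldehyde and the products of lipid peroxidation, make retinoic acid from retinaldehyde, and take part in amino acid, folate and fatty aldehyde metabolism. Live cells with high activity, seen with a fluorescent aldehyde substrate, are often sorted as stem-like cells in carcinomas, where ALDH1A1 and ALDH1A3 are the isoforms most often held to give that signal. A microRNA mimic is a synthetic duplex whose guide strand enters Argonaute and lowers mRNAs with sites complementary to its seed.

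The strand under test is shown because its seed defines what it can pair with. Capitals mark the seed, bases 2 to 8, and the sequence is RefSeq's (GRCh38.p14, chr16:67202327-67202348, minus strand).
hsa-miR-328-3p: cUGGCCCUcucugcccuuccgu
The letters in an mRNA that pair with this seed are AGGGCCA. Untranslated regions were not analysed here, so the number of such matches in each member was not examined.

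In the mimic arrays 4 of the 10 aldehyde dehydrogenases fell and none rose at a limma adjusted p of 0.05, where the test ran over 50646 probe sets. The 4 were ALDH3A1 (log2 difference -0.80), ALDH1A3 (-0.69), ALDH7A1 (-0.65) and ALDH3A2 (-0.51). Over all 18836 genes tested, 10.8% fell and 7.21% rose by the same rule. The other 6 did not pass, and 3 of those, ALDH1A1, ALDH1A2 and ALDH1L2, had values below the median of all probe sets on every array. The median difference was -0.13 over the 10 members and 0.01 over all genes tested. The lowest mimic array value of 1 member, ALDH2, lay above its highest control value, against 19.2% of all genes, and 5 members had the opposite pattern, against 22.4%. At an unadjusted p under 0.05, 1 member was higher, again ALDH2, and 5 were lower. In RNA from whole cultures, fewer cells with an mRNA and less of it per cell cannot be told apart.

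Values are on what is taken as a log2 scale, and a fold given here holds on that scale only. Array medians over all probe sets lay between 4.19 and 4.23 in the mimic group and between 4.16 and 4.19 in the control group. Correlations across probe sets were 0.9954 to 0.9969 within groups and 0.9921 to 0.9941 between groups. The labels do not say whether the arrays came from separate cultures, and the spread that the p-values rest on may therefore be technical. Of 6 epithelial markers 4 rose, against 7.21% of all genes tested, and none fell (none at an unadjusted p under 0.05). The rises ran from 0.20 for KRT19 to 0.66 for CDH1, which averaged 11.80 in mimic and 11.13 in control arrays. KRT8 and KRT19 each missed the threshold with any array but mimic array 3 removed (adjusted p between 0.056 and 0.0857). EPCAM, which did not pass, was at 12.97 in mimic and 12.90 in control arrays. The squamous keratin KRT5 stood at 17.00 in mimic and 17.03 in control arrays, and did not pass. Of the other 2 squamous markers tested, DSG3 fell to 13.72 in mimic arrays, against 14.59 in control arrays (log2 difference -0.88, limma adjusted p = 8.6e-05), and KRT14 was at 5.45 in mimic and 5.14 in control arrays and did not pass. None of 4 fibroblast markers tested passed, also at an unadjusted p under 0.05. Of 5 markers of ovarian and Müllerian epithelium, PAX8, WT1, MUC16 and SOX17 averaged 4.38, 3.99, 3.56 and 4.07 in mimic arrays and 4.33, 4.02, 3.41 and 4.18 in control arrays. Their mean signal stood at percentiles 55.3, 46.5, 25.7 and 49.9 of all transcript clusters. These 4 did not pass. ESR1 fell, from 7.36 in control to 7.02 in mimic arrays (log2 difference -0.34, limma adjusted p = 0.0132). Of the markers of other cell types, CD68, also a lysosomal protein of many cells, rose to 9.02 in mimic arrays, against 8.04 in control arrays. CDH5 fell to 4.80 in mimic arrays, against 5.48 in control arrays. The defining leukocyte gene PTPRC (3.44 in mimic, 3.41 in control) and endothelial gene PECAM1 (3.05 and 2.93) lay below the 3.47 used as the lower limit for testing. The 4 leukocyte markers analysed summed to between 20.08 and 20.23 log2 units in mimic arrays and between 18.61 and 19.01 in control arrays, and the 5 endothelial markers to between 17.93 and 18.17 and between 18.56 and 18.78. In the leukocyte sum CD68 differed by 0.99, CD14, whose mean lay below the limit for testing, by 0.24, CD3E by 0.08 and PTPRC by 0.03. In the endothelial sum CDH5 differed by -0.68 and the other markers by -0.05 to 0.12. The part of these markers in the results was not tested.

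**Figure D1:**
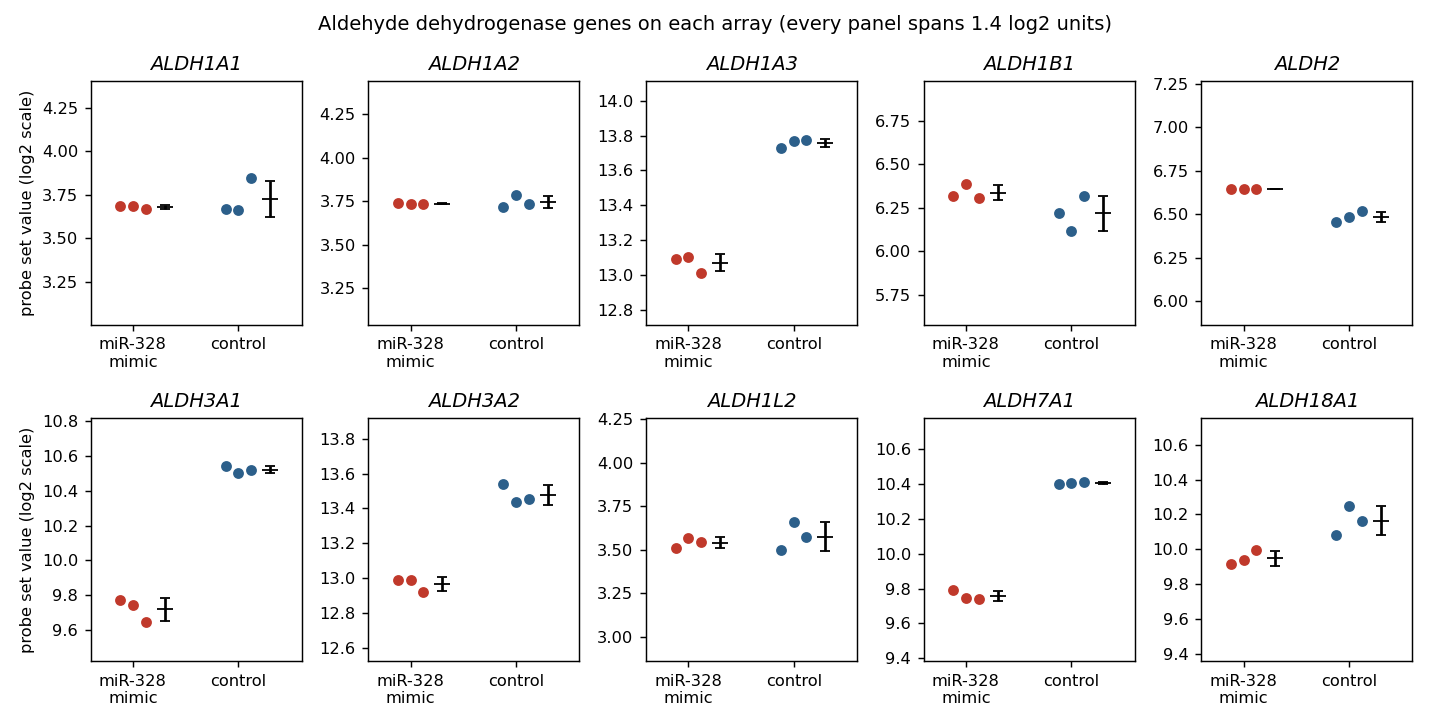
Probe set values (vertical axis, log2 scale) of the 10 aldehyde dehydrogenases on each of the 3 miR-328 mimic arrays (red) and the 3 control arrays (blue). Bars give the mean ± SD beside the points. ALDH1A3, ALDH3A1, ALDH3A2 and ALDH7A1 sit clearly lower in the mimic arrays, and ALDH1A1, ALDH1A2 and ALDH1L2 stay below 3.9 on every array.

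The retinaldehyde dehydrogenases ALDH1A1, ALDH1A2 and ALDH1A3 make retinoic acid. ALDH1A3 read 13.09, 13.10 and 13.01 in the mimic arrays, against 13.73, 13.77 and 13.78 in the control arrays. Every mimic array lay below every control array, and the gap was far wider than the spread within either group. The mean was 13.07 ± 0.0485 in mimic and 13.76 ± 0.0242 in control arrays (SD, n = 3 each), a 1.61-fold fall (log2 difference -0.69 ± 0.0404 SE, limma adjusted p = 0.000276). ALDH1A1 read 3.69, 3.68 and 3.67 in the mimic arrays, against 3.67, 3.66 and 3.85 in the control arrays. These values overlap, with a single higher control array. The difference was -0.05 with a 95% interval of -0.22 to 0.13. ALDH1A2 read 3.74, 3.73 and 3.73 in the mimic arrays, against 3.72, 3.78 and 3.73 in the control arrays, with an interval of -0.15 to 0.13 around -0.01. Signal this low leaves little room for a fall to show, so a lower level of these isoforms was not detectable here.

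ALDH3A1 is a cytosolic enzyme for aromatic and medium-chain aldehydes, abundant in cornea and a known target of the aryl hydrocarbon receptor. It read 9.77, 9.74 and 9.64 in the mimic arrays, against 10.54, 10.50 and 10.52 in the control arrays. The groups were separated on every array, and the mimic values stood at 57.4% of the control level on the linear scale. The log2 difference was -0.80 ± 0.0479 SE (limma adjusted p = 0.000294), the largest of the 10 members in size. ALDH3A2, the membrane-bound fatty aldehyde dehydrogenase that is mutated in Sjögren-Larsson syndrome, read 12.99, 12.99 and 12.92 in the mimic arrays, against 13.54, 13.44 and 13.45 in the control arrays. It too was lower on every mimic array. The log2 difference was -0.51 ± 0.0444 SE (limma adjusted p = 0.00104), or 1.42-fold lower. The 95% intervals of the differences were -0.92 to -0.69 for ALDH3A1 and -0.62 to -0.40 for ALDH3A2, and the difference between these falls was not tested.

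ALDH7A1, or antiquitin, oxidises the semialdehyde formed from lysine and also betaine aldehyde. It read 9.79, 9.74 and 9.74 in the mimic arrays, against 10.40, 10.40 and 10.41 in the control arrays. The control arrays were almost identical (SD 0.00756, n = 3), and the mimic arrays were all lower (SD 0.0278, n = 3). The log2 difference was -0.65 ± 0.0387 SE, a 1.57-fold fall (limma adjusted p = 0.000291). ALDH18A1 works in the reverse direction to the rest of the family, reducing glutamate towards the precursor of proline and ornithine. It read 9.91, 9.94 and 9.99 in the mimic arrays, against 10.08, 10.25 and 10.16 in the control arrays. The groups did not overlap, and the gap between them was about as wide as the SD of the control arrays. Its difference of -0.22 ± 0.0554 SE just missed the threshold (limma adjusted p = 0.0559). The adjusted p was 0.0411 without control array 1, 0.0464 with each array centred on its median and 0.0376 with the dimmer 50% of probe sets left out, all of which pass. Under every other alternative it lay between 0.0543 and 0.164, the highest with mimic array 2 removed, and did not pass.

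ALDH2, ALDH1B1 and ALDH1L2 did not pass. ALDH2, the main mitochondrial enzyme for acetaldehyde, read 6.64, 6.64 and 6.65 in the mimic arrays, against 6.46, 6.48 and 6.52 in the control arrays. All mimic arrays were higher, by 0.16 ± 0.0519 SE, but the limma adjusted p was 0.11. ALDH1B1, a related mitochondrial enzyme for short-chain aldehydes, read 6.32, 6.39 and 6.31 in the mimic arrays, against 6.22, 6.12 and 6.32 in the control arrays. The groups overlap, and the difference was 0.12 with a 95% interval of -0.05 to 0.29. ALDH1L2, the mitochondrial enzyme that oxidises formyl-tetrahydrofolate, read 3.51, 3.57 and 3.55 in the mimic arrays, against 3.50, 3.66 and 3.57 in the control arrays. Its values barely exceed the limit for testing and overlap fully, with a difference of -0.03 and a 95% interval of -0.20 to 0.13.

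The 4 falls did not rest on any single array. With each array left out in turn, the log2 difference ran from -0.83 to -0.76 for ALDH3A1, from -0.71 to -0.66 for ALDH1A3, from -0.66 to -0.64 for ALDH7A1 and from -0.53 to -0.48 for ALDH3A2. The highest adjusted p among these fits was 0.00826, for ALDH3A2.

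Genes with high signal fell more often on these arrays, so the members were also read against genes of similar brightness. This choice was made after their values were seen. The probe sets of ALDH1A3, ALDH3A1, ALDH3A2, ALDH7A1 and ALDH18A1 are in the top 10% of all transcript clusters by mean signal. Of these 5, 4 fell, against 23.9% of 3745 genes tested in that range. Their median difference was -0.65, against -0.03 for the 3745 genes. A difference as low as that of ALDH3A1 was found in 71 of the 3745, or 1.90%, and in 155 of all 18836 genes tested, or 0.823%.

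**Figure D2:**
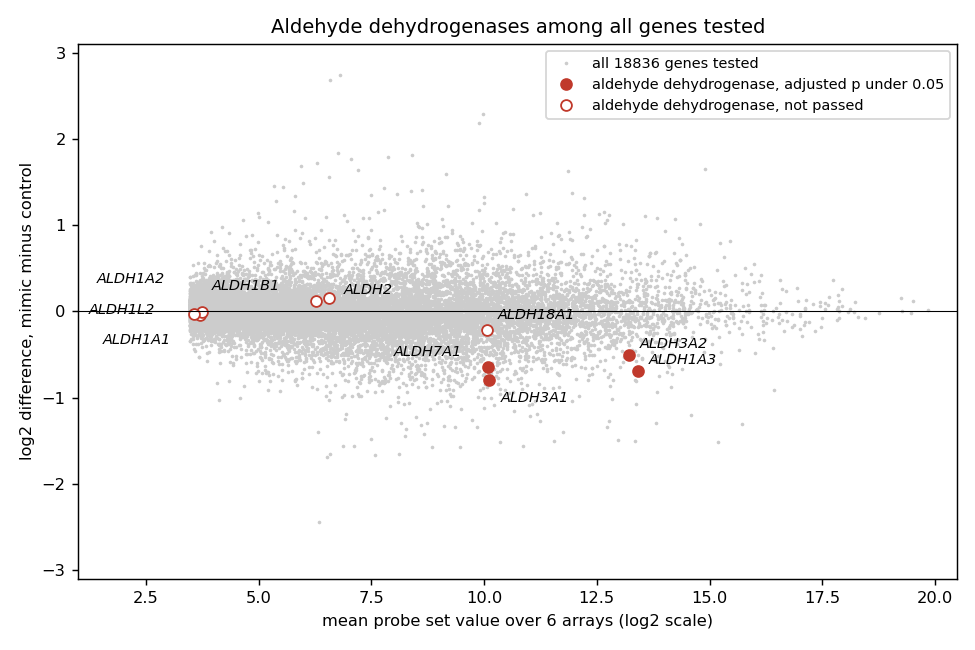
Log2 difference between mimic and control arrays (vertical axis) against the mean probe set value over 6 arrays (horizontal axis, log2 scale). Grey points are the 18836 genes tested, filled red points the aldehyde dehydrogenases with an adjusted p under 0.05, and open red points those that did not pass. The 4 members that fell all have means above 10, whereas ALDH1A1, ALDH1A2 and ALDH1L2 lie at the left edge of the cloud.

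RefSeq start-site windows, from 250 bases before to 50 after an annotated start (GRCh38.p14), were at hand for 7 of the 10 members, with 9 windows in all. ALDH2, ALDH3A1 and ALDH1L2 had none. The windows of the 3 matched members that fell are shown because these genes moved together. For ALDH3A2, which has 2 windows, the one holding motifs is printed. Capitals mark every match, on either strand, to the 6 motifs searched: the antioxidant element TGACNNNGC, the aryl hydrocarbon receptor core GCGTG, the CCAAT box CCAAT, the ATF4 and C/EBP element TGATGNAA, the retinoic acid response element core AGGTCA and the GC box GGGCGG. Where matches touch or overlap, as GC boxes do in ALDH1A3, the capitals run together.
ALDH1A3, chr15:100879581-100879880, plus strand: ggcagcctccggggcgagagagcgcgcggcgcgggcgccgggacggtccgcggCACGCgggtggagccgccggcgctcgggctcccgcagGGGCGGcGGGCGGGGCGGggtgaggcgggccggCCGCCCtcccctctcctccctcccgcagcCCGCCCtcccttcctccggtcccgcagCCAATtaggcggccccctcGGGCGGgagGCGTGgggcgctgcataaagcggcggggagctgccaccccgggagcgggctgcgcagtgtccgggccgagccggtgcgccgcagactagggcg
ALDH3A2, chr17:19648501-19648800, plus strand: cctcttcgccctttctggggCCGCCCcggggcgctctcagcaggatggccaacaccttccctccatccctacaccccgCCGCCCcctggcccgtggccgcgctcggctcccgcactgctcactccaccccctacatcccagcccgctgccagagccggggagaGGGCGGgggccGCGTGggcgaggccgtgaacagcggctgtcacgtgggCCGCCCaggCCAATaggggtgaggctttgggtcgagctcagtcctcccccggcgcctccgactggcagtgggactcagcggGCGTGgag
ALDH7A1, chr5:126595170-126595469, minus strand: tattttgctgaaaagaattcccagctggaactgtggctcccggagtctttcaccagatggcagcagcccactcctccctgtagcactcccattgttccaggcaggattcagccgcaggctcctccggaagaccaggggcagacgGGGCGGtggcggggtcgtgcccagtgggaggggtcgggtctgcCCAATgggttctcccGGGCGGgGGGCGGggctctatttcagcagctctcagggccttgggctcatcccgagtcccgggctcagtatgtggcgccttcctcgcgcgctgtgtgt
All 3 printed windows hold a CCAAT box, which begins 71 bases before the start in ALDH1A3, 30 in ALDH3A2 and 63 in ALDH7A1, together with 6, 4 and 3 GC boxes. The ALDH3A2 window that was not printed holds none of the 6 motifs, so this count depends on the choice of window. Over 35116 windows of the same length, 34.6% hold a CCAAT box and 45.0% a GC box. Of the member windows, 6 of 9 hold a CCAAT box and 5 of 9 a GC box, which are the counts to set beside those shares. By gene, 6 of 7 members had a window with a CCAAT box and 5 of 7 a window with a GC box. These include ALDH1A2 and ALDH1B1, which did not pass. ALDH1A1, which did not pass either, had a CCAAT box and no GC box. The aryl hydrocarbon receptor core is in 3 of the 9 member windows, those of ALDH1A3, ALDH3A2 and ALDH1A2, and in 36.5% of all windows. No member window held the antioxidant element (13.3% of all windows), the ATF4 and C/EBP element (3.62%) or the retinoic acid response element core (13.8%). A match is only a match of letters, and its absence covers only these windows.

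Of the 9 remaining human aldehyde dehydrogenase genes, 8 had a probe set with 1 symbol, and ALDH4A1, whose probe set carries a second symbol, was not analysed here. Among these 8, 2 fell, against 10.8% of all genes tested, and none rose, nor was any higher at an unadjusted p under 0.05. ALDH9A1, which makes the carnitine precursor, averaged 7.26 ± 0.0944 in mimic and 7.86 ± 0.0859 in control arrays (SD, n = 3 each), a log2 difference of -0.60 (limma adjusted p = 0.00347). ALDH6A1, which acts in valine and thymine breakdown, averaged 6.48 ± 0.0544 in mimic and 7.00 ± 0.0444 in control arrays, a difference of -0.51 (limma adjusted p = 0.00268). Both were lower on every mimic array. ALDH5A1, the succinic semialdehyde dehydrogenase of GABA breakdown, stood at -0.15 and ALDH16A1 at -0.13, and neither passed. ALDH1L1, ALDH3B1, ALDH3B2 and ALDH8A1 lay between -0.05 and 0.08.

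**Figure D3:**
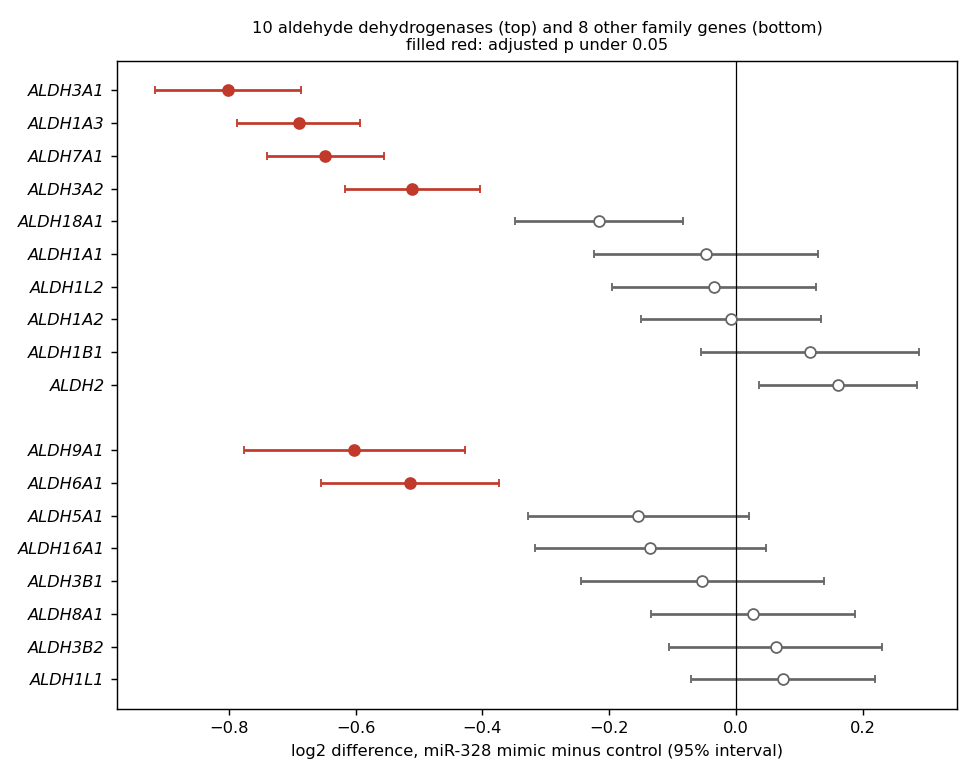
Log2 difference, miR-328 mimic minus control, with its 95% interval for the 10 aldehyde dehydrogenases (top) and the 8 other family genes analysed (bottom). Filled red points passed an adjusted p of 0.05, and all 6 of them lie between -0.80 and -0.51.

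The pathways around each enzyme were read from lists of genes other than the members. The counts of every list below are to be read beside the shares over all genes tested, where 10.8% fell and 7.21% rose. Of genes in the top 10% by signal, 23.9% fell, and the share that rose in that range was not counted. Of 18 genes of retinoid supply and removal, which surround the ALDH1A enzymes, 3 rose, 4 fell and 11 did not pass, with a median of -0.04. The retinaldehyde reductase DHRS3 fell by 0.46 to 9.98 in mimic arrays, against 10.44 in control arrays, and the retinoic acid carrier CRABP2 passed at -0.43. Retinol dehydrogenase DHRS9 rose by 0.39, and the retinol dehydrogenase SDR16C5 passed at 0.46. CRABP2 missed the threshold in each of the 6 fits with an array removed (adjusted p between 0.0794, with mimic array 1 removed, and 0.0984, with control array 1 removed), and SDR16C5 was lost without control array 1 (0.105) or 2 (0.115) or mimic array 1 (0.101), 2 (0.124) or 3 (0.061). Of 9 retinoid receptors and targets tested, the receptor RARG fell by 0.48 and the other 8 did not pass. At an unadjusted p under 0.05, none of the 9 was higher and 2 were lower.

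Further enzymes reduce or oxidise aldehydes. Of 10 aldehyde and ketone reductases and related enzymes, 6 fell, none rose and 4 did not pass. The shares that fell were 10.8% of all genes tested and 23.9% of genes in the top 10% by signal. At an unadjusted p under 0.05, 8 of the 10 were lower and 1 was higher. The median of the 10 was -0.32, against 0.01 over all genes tested. Among those that did not pass, CBR1 was at 0.00, CBR3 at 0.29, AKR1B10 at -0.25 and AKR7A3 at -0.21. DCXR, a carbonyl reductase of sugars, averaged 11.17 ± 0.0813 in mimic and 11.82 ± 0.0982 in control arrays (SD, n = 3 each), and PTGR1, which reduces lipid-derived aldehydes and ketones, averaged 9.43 ± 0.0384 and 9.88 ± 0.0273. ADH5, the glutathione-dependent formaldehyde dehydrogenase, fell by 0.38, and the other 3 alcohol dehydrogenases tested did not pass. ADH1B, ADH6 and ADH7 were below the limit for testing.

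Genes of lysine and choline breakdown surround ALDH7A1, and of 9 tested 2 fell, none rose and 7 did not pass (median -0.03). AASS, which catalyses the first steps of the lysine route that leads to the ALDH7A1 substrate, read 6.63, 6.73 and 6.81 in mimic arrays, against 7.66, 7.69 and 7.68 in control arrays. Every mimic array was lower, and the fall was 0.95 on the log2 scale (limma adjusted p = 0.000396). The mitochondrial carrier SLC25A21, which moves a later product of that route, passed at -0.41. It missed the threshold with control array 1 (adjusted p = 0.0537), control array 3 (0.0627), mimic array 1 (0.0586) or mimic array 2 (0.0703) removed. At an unadjusted p under 0.05, 2 of the 9 were higher and 3 were lower.

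Of 11 genes that supply fatty aldehydes to ALDH3A2 or draw on their precursors, 3 rose, 2 fell and 6 did not pass (median -0.02). SGPL1, the sphingosine phosphate lyase that releases a fatty aldehyde, rose by 0.64 to 8.25 in mimic arrays, against 7.61 in control arrays (limma adjusted p = 0.000809), and CYP4F3 passed at 0.54. AGPS and FAR1, of ether lipid synthesis, passed at -0.27 and -0.23. CYP4F3 was lost without control array 3 (adjusted p = 0.0613) or mimic array 1 (0.0593) or 2 (0.0532). AGPS missed the threshold with control array 1 (adjusted p = 0.0567), control array 3 (0.0828), mimic array 1 (0.103), mimic array 2 (0.0543) or mimic array 3 (0.0895) removed. The same was true of FAR1 with control array 3 (adjusted p = 0.0704), mimic array 1 (0.0833), mimic array 2 (0.061) or mimic array 3 (0.0759) removed.

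Around ALDH18A1, 3 of 7 genes of proline and glutamate metabolism fell and none rose (median -0.18). At an unadjusted p under 0.05, none of the 7 was higher and 4 were lower. Glutamine synthetase GLUL fell by 0.60 and glutamate dehydrogenase GLUD1 by 0.38. Around ALDH1L2, 2 of 10 folate genes rose, 5 fell and 3 did not pass (median -0.18). Of all genes tested, 7.21% rose and 10.8% fell, and 23.9% fell in the top 10% by signal. MTHFD2, the mitochondrial dehydrogenase that works in the same compartment, rose by 0.98 to 12.66 in mimic arrays, against 11.68 in control arrays, while SHMT2 and SHMT1, the mitochondrial and cytosolic serine hydroxymethyltransferases, fell by 0.50 and 0.46. TYMS, thymidylate synthase, passed at 0.22 with all 6 arrays and missed the threshold with any of them removed (adjusted p between 0.0831, for mimic array 2, and 0.161, for control array 3).

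Of 7 genes of the aryl hydrocarbon receptor axis, which induces ALDH3A1, 1 rose, 1 fell and 5 did not pass (median 0.11). The receptor AHR read 13.32, 13.38 and 13.38 in mimic arrays, against 12.96, 12.80 and 12.96 in control arrays. It was higher on every mimic array, by 0.45 (limma adjusted p = 0.00327). Its classical targets CYP1A1, at 4.38 in mimic and 4.24 in control arrays, and CYP1B1, at 5.87 and 5.77, did not pass. TIPARP, of the same list, was higher on every mimic array, at 9.48 against 9.30 in control arrays, and did not pass either (limma adjusted p = 0.0836). At an unadjusted p under 0.05, 2 of the 7 genes were higher and 1 was lower. NQO1 passed at -0.19, but not with control array 1 (adjusted p = 0.0796), control array 2 (0.103), control array 3 (0.0866), mimic array 2 (0.139) or mimic array 3 (0.102) removed.

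**Figure D4:**
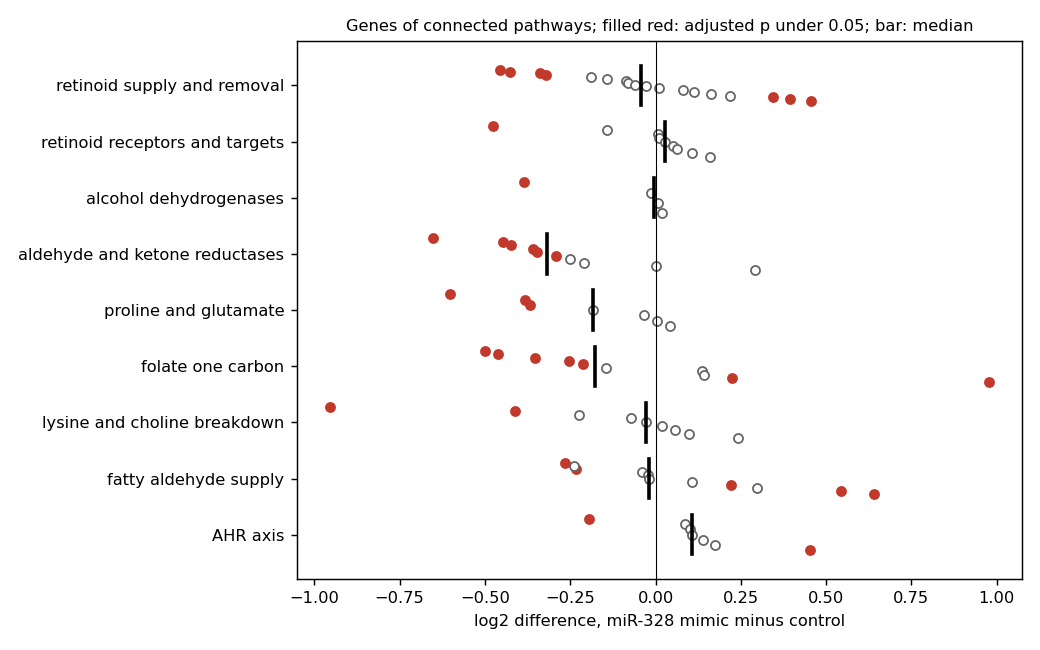
Log2 difference, miR-328 mimic minus control, of each tested gene in the 9 lists of connected pathways, with the median of each list as a black bar. Filled red points passed an adjusted p of 0.05. In the list of aldehyde and ketone reductases, 6 of 10 genes fell and the median is -0.32, and the points farthest from 0 are AASS at -0.95 and MTHFD2 at 0.98.

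ALDH3A2 and ALDH3A1 lie on chromosome 17 with a single protein-coding gene, SLC47A2, between them in the RefSeq table. Among the 13 protein-coding genes formed by these 3 and the 5 on either side, 5 fell, none rose and 8 did not pass, against the 10.8% of all genes that fell. This stretch was chosen after the values of its genes were seen. The 5 are consecutive. SLC47A1 averaged 6.95 ± 0.0131 in mimic and 7.39 ± 0.0244 in control arrays (difference -0.44, limma adjusted p = 0.00235). ALDH3A2 at -0.51 follows, then SLC47A2 at 6.06 ± 0.0662 in mimic and 6.78 ± 0.0221 in control arrays (-0.73, limma adjusted p = 0.000879), then ALDH3A1 at -0.80. SLC47A1 and SLC47A2 encode organic cation exporters. ULK2, an autophagy kinase, ends the run at -0.21, and it missed the threshold with any of the 6 arrays removed (adjusted p between 0.0688, for mimic array 3, and 0.114, for mimic array 2). The genes beyond the run lay between -0.14 and 0.31. Next to the other members, TCTN3 beside ALDH18A1 fell by 0.71 (limma adjusted p = 0.00093), while ANXA1 beside ALDH1A1 rose by 0.55 (0.000702) and WASHC4 beside ALDH1L2 rose by 0.36 (0.00924). Beside the members that fell, LRRK1 next to ALDH1A3 was at -0.05, and GRAMD2B and PHAX on either side of ALDH7A1 were at -0.17 and -0.05, none of which passed.

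**Figure D5:**
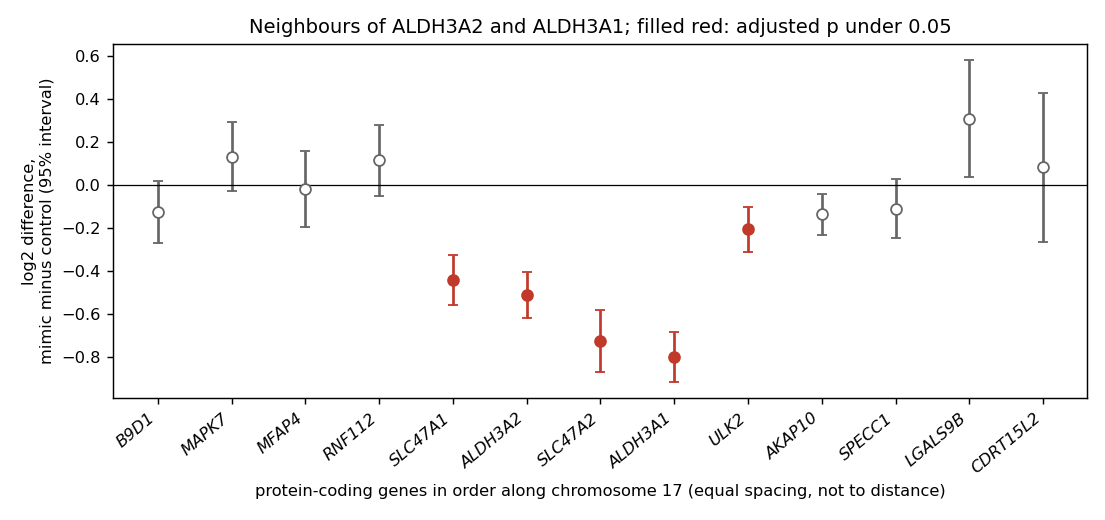
Log2 difference, miR-328 mimic minus control, with its 95% interval (vertical axis) for 13 protein-coding genes in their order along chromosome 17, equally spaced. The 5 filled red points, from SLC47A1 to ULK2, passed an adjusted p of 0.05 and lie next to each other, and ALDH3A1 is the lowest at -0.80.

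The genes most like ALDH3A1 over the 6 arrays were EGR1, CTDSPL and RBMS3, by the root mean square distance between values centred on each gene's mean. The distances were 0.0277, 0.0295 and 0.0297 log2 units. EGR1, an immediate early transcription factor, read 11.97, 11.87 and 11.86 in mimic arrays, against 12.73, 12.68 and 12.70 in control arrays. CTDSPL, a small phosphatase, stood at -0.85 and RBMS3, an RNA-binding protein, at -0.75. With 6 arrays in 2 groups this likeness is mostly a likeness of the difference between the groups.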

How the data were processed

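In the deposited table each probe set has 1 value for each array, taken as log2 because values run from 1.62 to 19.9, and the authors' normalization was kept. Some values exceed what plain log2 scanner intensities reach, so the exact scale is unknown. MAS5 is the only tool in the submitters' processing notes, with no role or version; other steps and the build were not given in the sources. From 70523 probe sets the 2995 controls were removed, then the 25% of 67528 transcript clusters with the lowest mean, which left 50646 tested, standing for 18836 genes. Genes were named from the platform annotation where it gives 1 symbol (23781 clusters; 1543 have several, 42204 none), with the highest-mean probe set for each gene. The comparison used limma 3.58.1 with R 4.3.3 (empirical Bayes with a mean-variance trend, two-sided, Benjamini-Hochberg over all probe sets tested, threshold 0.05). With 3 arrays a group an exact permutation p cannot be under 0.1, and none was used. Intervals are unadjusted 95% intervals from that fit. The number of arrays, 3 per group, limits the precision.

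The script was tested on simulated data, with 50 of 50646 probe sets changed at each size. It recovered 72% of those lowered by 1 log2 unit and 20% by 0.5, and 70% of those raised by 1 and 22% by 0.5, with 3 false calls. Far fewer probe sets were changed there than were called in the data (2413 higher and 3372 lower). The Benjamini-Hochberg cutoff depends on that number, so these rates do not give the sensitivity of the real comparison. Alternatives were median centring, quantile normalization, other filters, other variance models, a replicate block, the mean of a gene's probe sets, and each array left out.

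The members, lists and naming rule were chosen with earlier results of these data known. The rule names all members and the other family genes, and from each pathway list up to 2 highest and 2 lowest genes that passed, or the 2 with the smallest p, and the 3 genes most like the member with the largest difference. Further genes, such as CYP1A1 and the neighbours on chromosomes, were named after their values were seen. Sequences are RefSeq's. Plots used matplotlib 3.10.9 and Python 3.11.15.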

Additional observations from a re-analysis of the deposited data

How the results depend on the processing

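The 4 falls of ALDH1A3, ALDH3A1, ALDH3A2 and ALDH7A1 passed under every alternative run, and ALDH18A1 joined them under median centring, with the dimmer 50% of probe sets left out and without control array 1, so that the number of members that fell was 4 or 5 and the number that rose 0 throughout. With single arrays left out it was 4 to 5. Over all probe sets 2413 rose and 3372 fell, and these numbers ran from 1408 to 2241 and from 2051 to 2643 with single arrays left out, which leaves fewer samples. They were more than 1.5 times smaller without control array 3 (1514 and 2072), mimic array 1 (1593 and 2211) or mimic array 2 (1408 and 2051). Differences close to 0, none of which passed, changed sign in some settings. With single arrays left out, ALDH1A1 ran from -0.0784 to 0.0141, ALDH1A2 from -0.0216 to 0.0126, ALDH1L2 from -0.0738 to 0.0074, ALDH3B1 from -0.0971 to 0.0121, ALDH8A1 from -0.0051 to 0.0514, MFAP4 from -0.0629 to 0.0122 and CDRT15L2 from -0.0406 to 0.1936. ALDH8A1 was also at -0.0041 with median centring and -0.0144 with quantile normalization. MFAP4 and CDRT15L2 are neighbours on chromosome 17. The cause of these changes was not tested.

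Whether same-numbered arrays are pairs is not known. Their deviations correlated at 0.14, -0.05 and 0.18 for numbers 1, 2 and 3, and those of arrays with unlike numbers at -0.23 to 0.115. A replicate block from the numbers left 1969 probe sets higher and 2547 lower, with 4 members that fell. Under the block SDR16C5 (adjusted p = 0.0872), TYMS (0.0729), AGPS (0.0781), FAR1 (0.0626), NQO1 (0.0768), ULK2 (0.0901), KRT8 (0.0635), KRT19 (0.0774) and ESR1 (0.0503) no longer passed. ESR1 also missed the threshold without mimic array 1 (0.0539). Of the pathway genes and neighbours named, TYMS was lost with median centring (0.0712), quantile normalization, no filter and no mean-variance trend, SDR16C5 with median centring (0.0501) and quantile normalization, CRABP2 with no filter, no trend and robust variances (0.0506 to 0.0601), AGPS, FAR1, NQO1 and ULK2 with no trend (0.056 to 0.0974), and ULK2 with quantile normalization (0.0695). KRT8 and KRT19 were lost with quantile normalization (0.0964 and 0.106) and with no trend (0.0642 and 0.0733). AKAP10 passed with median centring (0.0424). Centring each array on its median moved the median difference of all probe sets by 0.03 on the log2 scale. Signal near the low end of the arrays limits what can be said of ALDH1A1, ALDH1A2 and ALDH1L2.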
